A study of Rattus norvegicus with 10 samples.

Results

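The immunoglobulin heavy chain (IGH) repertoire was compared within each of 10 rats between reads that the annotation service called unproductive and reads that it called productive. All reads with either call in the 10 libraries were used, which gave 1752738 of the 1826248 reads deposited, and each animal contributed both an unproductive and a productive set. The unproductive side held 136842 reads and the productive side held 1615896 reads, while 62494 reads of unknown functionality and 11016 reads without a result were left out. The samples were spleen cells of 5 Wistar rats immunized with DNP, the hapten dinitrophenyl carried by keyhole limpet hemocyanin, and of 5 Wistar rats immunized with HuD, a neuronal RNA-binding protein that is also made by some tumours. All animals received the antigen 1 time in complete Freund's adjuvant and then 3 boosts in the incomplete adjuvant at intervals of 2 weeks, and no unimmunized animal was included. The animals were littermates, and their ages were not given in the sources used here. A read is 1 sequence left after raw reads with the same molecular tag had been collapsed, and its copies are the number of sequenced reads that carried that tag. A read with 1 copy therefore had no second read from which an error could be corrected.

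An IGH gene is made by joining a V, a D and a J segment (here IGHV, IGHD and IGHJ) in the developing B cell, and bases are lost and added at the joints, so that many joints leave the J segment in another reading frame than the V segment. A B cell can carry a failed joint on one chromosome and a working one on the other, and RNA with an early stop codon is usually kept low by nonsense-mediated decay. Stop codons can also arise later in a joined gene, by somatic hypermutation during an immune response or by an error during reverse transcription, amplification or sequencing. The part of the read that spans the joints from the conserved cysteine of the V segment to the conserved tryptophan of the J segment is called the junction. The framework regions FR1 to FR4 hold the fold of the domain and the loops CDR1 to CDR3 between them make most contacts with antigen.

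The end of FR4 shows in which frame the J segment was read, and the FR4 letters most often found among productive reads of each IGHJ gene are given here because the kinds of unproductive read were told apart by them.
IGHJ1, usual FR4: WGPGTMVTVSS
IGHJ2, usual FR4: WGQGVMVTVSS
IGHJ3, usual FR4: WGQGTLVTVSS
IGHJ4, usual FR4: WGQGASVTVSS
These letters made up 86.5% of productive reads with IGHJ1, 86.2% with IGHJ2, 87.8% with IGHJ3 and 47.1% with IGHJ4. In IGHJ4 the ending with T in place of A, GQGTSVTVSS, held another 38.5% of the reads that were in frame. When the J segment was read in a shifted frame, the leading endings were different words, shown here for the most used segment IGHJ2 beside its in-frame ending.
IGHJ2, in frame: GQGVMVTVSS
IGHJ2, shifted, most frequent: AKESWSQSPQ
IGHJ2, shifted, next: GPRSHGHSLL
A read was called in frame or shifted when at least 6 of the 10 letters of such an ending were found within its last 45 residues, and "neither" otherwise. The neither call is thus a failed match and leaves the frame of the J segment unknown.

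The number of reads differed between libraries, from 71562 to 287196, and the share left out ranged from 1.71% to 10.98%. Unproductive reads numbered from 3921 in animal DNP3 to 22204 in HuD2, with a median of 12601.5 per animal. DNP3 had the fewest reads on both sides and stood apart in several of the measures below, where its value is named. All 10 libraries were sequenced in 1 run, and p-values measure the spread between these animals.

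Unproductive reads were a small share of every library. They made up 7.61% ± 1.21 (SD, n = 10) of the reads, from 5.61% in DNP1 over a median of 7.49% to 9.24% in HuD4. The share was 0.819 percentage points higher in HuD animals than in DNP animals, and the groups overlapped (exact 2-sided permutation test over 5 against 5 animals, p = 0.357, where the smallest possible p is 0.00794). A difference between the antigens was therefore not detectable.

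The unproductive share depended on how many copies a read had. Among reads with 1 copy, 3.99% ± 0.539 (SD, n = 10) were unproductive, and the animals ranged from 3.27% to 5.00%. Among reads with 2 copies the share was 30.0% ± 7.06, from 20.2% to 41.5%, so the ranges of these copy classes did not overlap. With 3 copies it was 12.3% ± 5.62 and with 4 copies 18.6% ± 8.02. It was 17.03% at 6 to 10 copies and 9.61% above 20 copies, where animals ranged from 0 to 31.0%. The share with at least 2 copies exceeded that with 1 copy by 18.8 ± 7.36 points in 10 of 10 animals (exact sign-flip permutation test over the animals, p = 0.00195, the smallest this design allows). Reads with 2 copies exceeded reads with 3 copies by 17.8 ± 4.22 points, also in 10 of 10 animals (exact sign-flip test, p = 0.00195), and reads with 4 copies exceeded those with 3 by 6.35 ± 3.08 points in 10 of 10 (exact sign-flip test, p = 0.00195). These contrasts between copy classes were chosen after their values were seen.

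**Figure D1:**
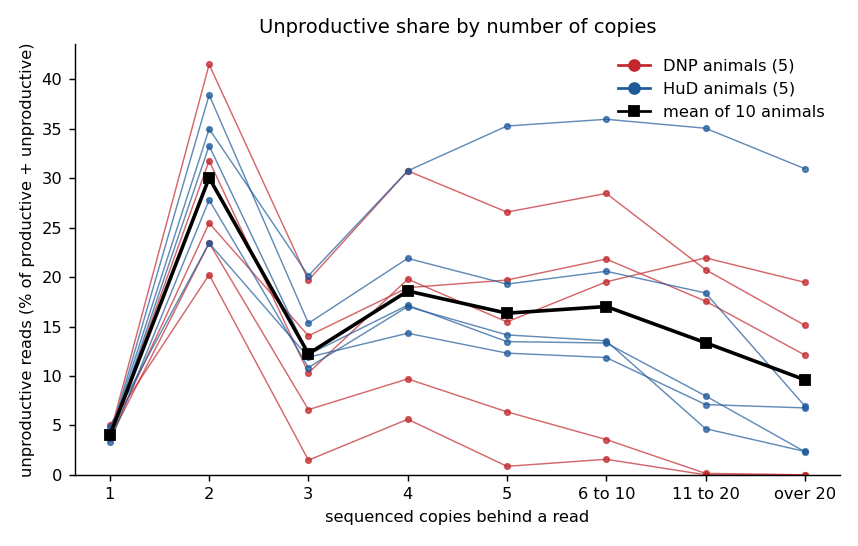
Percent of reads called unproductive (y axis) against the number of copies of a read (x axis, classes), with 1 thin line for each of the 10 animals, coloured by antigen, and the mean over animals in black. The mean rises from 3.99% at 1 copy to 30.0% at 2 copies and is 12.3% at 3 copies.

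Seen from the other side, copies were distributed differently on the 2 sides. Only 43.6% ± 10.9 (SD, n = 10) of unproductive reads had 1 copy, from 31.7% to 66.8% with a median of 39.7%, whereas 83.9% ± 1.95 of productive reads did, from 81.7% to 87.8%. The ranges did not overlap, and the share was lower among unproductive reads by 40.3 points in 10 of 10 animals (exact sign-flip test, p = 0.00195). DNP3 had the smallest difference, 66.8% against 82.1%. Mean copies were 2.22 ± 0.526 in unproductive and 1.57 ± 0.184 in productive reads, a difference of 0.652 that was positive in 8 of 10 animals (exact sign-flip test, p = 0.00977) and negative in DNP1 and DNP3.

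The J frame separated the unproductive reads into 3 kinds, and these values describe the call itself and were not tested. In 84967 reads the J segment was in frame, which was 62.8% of the unproductive reads on average, from 57.9% in HuD1 to 70.2% in DNP3. A shifted J segment was found in 13.5%, from 9.19% in DNP5 to 20.8% in DNP3. The other 23.7% had neither ending, from 8.95% in DNP3 to 30.6% in DNP5. Among productive reads only 16 in all had a shifted ending and 0.235% on average had neither.

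Stop codons were present in 91.3% of unproductive reads, from 88.3% to 94.99%. They were in 99.8% of the in-frame kind and 99.6% of the neither kind, and in 37.1% of the shifted kind. A single stop was the rule in the in-frame kind, where 75.9% of reads held exactly 1. In the neither kind 28.0% of reads held 1 stop and 27.2% held 2.

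The kinds differed in copies. In the shifted kind 97.4% of reads had 1 copy (87.1% in HuD1, the lowest), which is above the 83.9% of the productive reads. In the in-frame kind 44.1% ± 10.3 (SD, n = 10) had 1 copy and 40.0% ± 6.27 had 2, while 3.72% had 3. In the neither kind 14.7% had 1 copy and 59.9% ± 7.64 had 2. Again DNP3 differed, with 56.7% of its 351 reads of the neither kind at 1 copy. The surplus of unproductive reads at 2 copies was thus held by the in-frame and neither kinds.

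**Figure D2:**
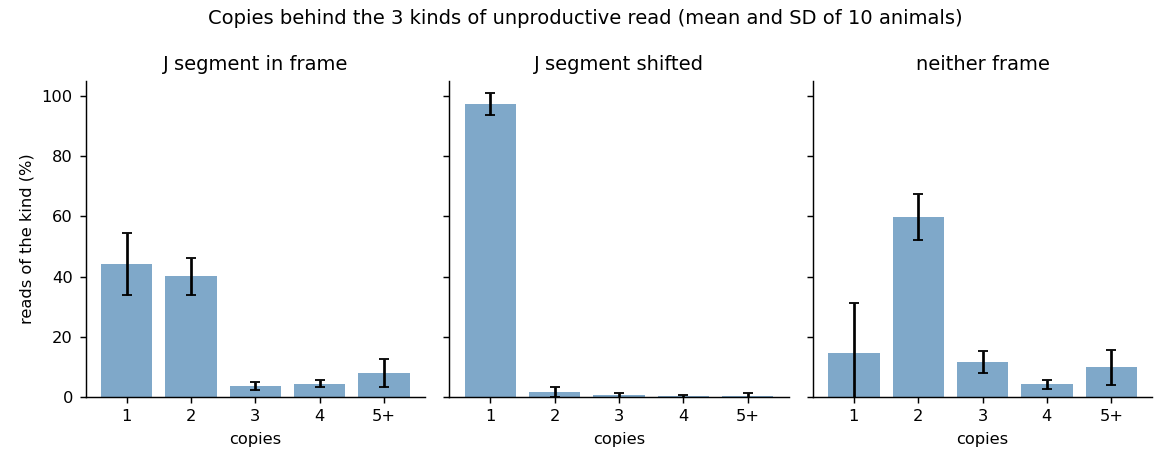
Percent of the reads of each kind (y axis) by number of copies (x axis, 5 and more together) for the in-frame, shifted and neither kinds of unproductive read, with bars for the mean and error bars for the SD of 10 animals. At 1 copy lie 97.4% of the shifted kind and 14.7% of the neither kind, of which 59.9% lie at 2 copies.

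Within the neither kind the same endings recurred. Of its 33877 reads, 76.9% had an FR4 of the usual length and 19.8% had none. Of the 26058 reads with the usual length, the 10 most frequent of 6333 distinct FR4 strings held 5204, which is 15.4% of all reads of this kind. The strings that recurred are shown because they came back in every animal with the same letters and different junctions. An asterisk is a stop codon.
Neither kind, IGHJ2: WEEVMMIIFSS
Neither kind, IGHJ1: WGGRMMIMLS*
Neither kind, IGHJ2: *VKVIMFTVS*
Neither kind, IGHJ3: CY*GKVIIVTL
The string WEEVMMIIFSS was carried by 938 reads in all 10 animals with 899 different clonotypes, a clonotype being a combination of IGHV gene, IGHJ gene and junction. It matched the usual IGHJ2 FR4 in 4 of its letters, 98.1% of its reads had 2 copies and 0% had 1 copy, and 15 productive reads carried it. The string WGGRMMIMLS* was found in 705 reads, all with IGHJ1, and *VKVIMFTVS* in 670 reads with 670 clonotypes, and both were again present in 10 animals without a read of 1 copy.

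Where the stops lay depended on the copies as well. In in-frame reads with 1 copy, 55.3% ± 2.25 (SD, n = 10) had a stop in FR3, against 6.50% in CDR1. With at least 2 copies the order turned, with 39.8% ± 11.5 in CDR1 and 11.4% ± 4.53 in FR3. The lowest animal with 1 copy (52.8% in FR3) lay above the highest with at least 2 copies (22.9%). In reads of the neither kind with at least 2 copies, stops in FR4 and in CDR3 were each in 65.9% of reads.

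Single positions carried much of this pattern. Positions are counted from the start of each region with alignment gaps included. Position 13 of CDR1 had a stop in 16.6% of unproductive reads on average, the highest value of any position, followed by FR4 position 1 (the conserved tryptophan) with 12.2%, FR4 position 3 (glutamine) with 6.21%, FR4 position 11 (serine) with 4.33%, FR2 position 14 (tryptophan) with 3.94% and FR3 position 37 (tyrosine) with 3.74%. The other 4 of the highest 10 were FR1 position 7 (serine) with 3.30%, FR1 position 17 (glutamine) with 3.12%, FR3 position 39 (tyrosine) with 3.06% and FR3 position 2 (tyrosine) with 2.51%.

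In in-frame reads with 1 copy, FR3 position 37 led with 12.02% ± 1.99, ahead of FR3 position 2 with 7.77% and FR3 position 39 with 5.44%. These are tyrosines, and FR3 position 37 had a stop in only 0.300% of the in-frame reads with at least 2 copies. In that class CDR1 position 13 led with 39.1% ± 13.2 and ranged from 24.0% to 59.9%, against 1.84% in reads with 1 copy. FR4 position 1 followed with 10.97%, FR1 position 7 with 8.12% and FR2 position 14 with 7.92%.

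**Figure D3:**
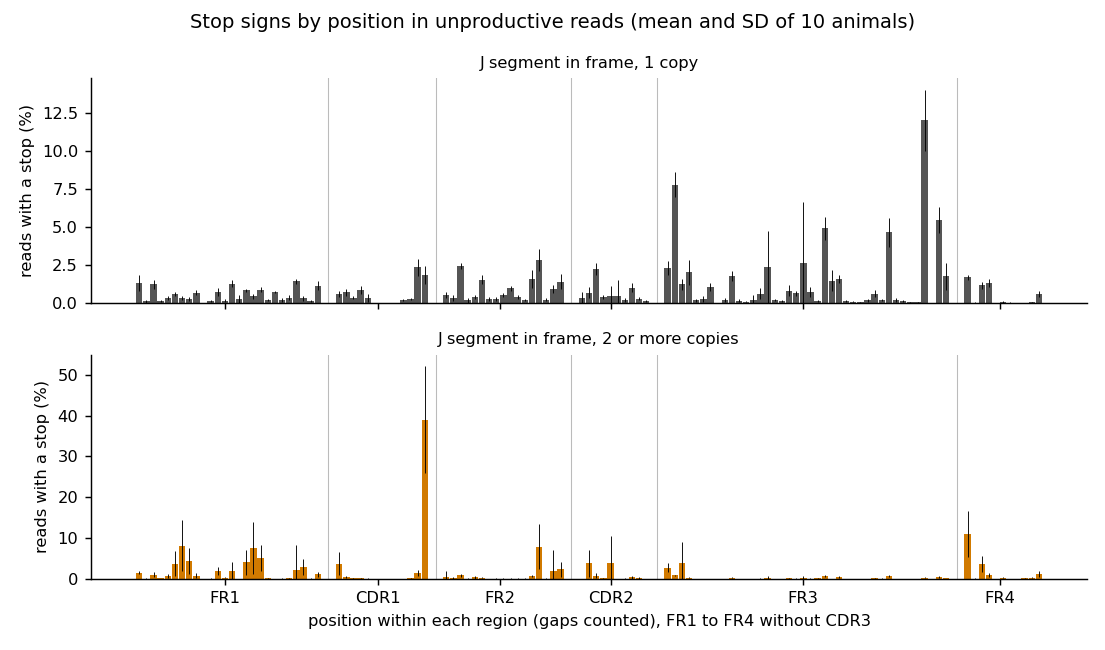
Percent of in-frame unproductive reads with a stop (y axis) at each position from FR1 to FR4, CDR3 left out (x axis, gaps counted), with bars for the mean and error bars for the SD of 10 animals, for reads with 1 copy above and with at least 2 copies below. CDR1 position 13 stands at 1.84% with 1 copy and 39.1% with at least 2, and FR3 position 37 at 12.02% and 0.300%.

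The residues that the stops replaced followed the same split. The residue most often seen at that position in productive reads of the same IGHV gene was taken as the one replaced. Tyrosine stood behind 37.2% ± 4.07 of stops in in-frame reads with 1 copy, while it made up 5.87% of the positions. In reads with at least 2 copies it stood behind 17.1% of stops. Tryptophan stood behind 7.73% and 28.6% in these classes and made up 3.19% and 3.21% of the positions. Residues whose codons can become a stop by 1 base change stood behind 90.5% and 92.0% of stops, and they made up 60.9% and 60.8% of the positions.

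Some IGHV genes had a stop at one position in a large share of their unproductive reads. IGHV9-4, annotated as functional, had a stop at FR1 position 1 in 137 of 138 unproductive reads, spread over 10 animals. The paper's forward primer for IGHV9 reaches into FR1 and holds a mixed base, C or T, at this codon. With C the codon is glutamine, and with T it is a stop. Whether the primer gave these stops was not tested. IGHV5-58 and IGHV5-31 had a stop at CDR1 position 13, a tryptophan in both, in 49.0% and 46.9% of reads, and for IGHV5-31 this was 7209 of 15367 reads. IGHV6-6 had it at FR3 position 39 in 47.7%, IGHV3-3 at FR1 position 17 in 42.2% and IGHV2S1 at CDR2 position 2 in 44.7%. These shares differed widely between animals, from 25.3% in DNP5 to 72.5% in HuD3 for IGHV5-31 and from 2.16% in DNP3 to 63.8% in DNP2 for IGHV3-3. These genes were chosen after their stops were seen.

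Apart from the stops, the V regions of unproductive reads held more residues that differed from the most frequent productive residue of the same gene. The difference was 11.3% ± 2.05 (SD, n = 10) of residues in unproductive reads, with a lowest value of 8.68%, a median of 11.01% and a highest value of 15.6%. Productive reads, weighted to the same mix of IGHV genes, had 6.96% ± 0.825, from 5.77% to 8.36%. The ranges did not overlap, and the excess of 4.30 ± 1.81 points was found in 10 of 10 animals (exact sign-flip test, p = 0.00195). FR1 of in-frame reads had 6.57% with 1 copy and 13.2% with at least 2, against 3.33% and 2.68% in productive reads. FR3 had 9.97% with 1 copy and 5.55% with at least 2, against 6.10% and 4.37%. Reads of the neither kind with 1 copy, which were few, had fewer differences than productive reads with 1 copy in FR1 (2.80%), CDR1 (10.4% against 11.6%), FR2 (5.84% against 5.92%) and CDR2 (16.95% against 21.9%), and more in FR3 (22.9%). These regional values, unlike the whole V region above, were not weighted to the same mix of IGHV genes, and they were not tested. The most frequent residue can itself be an allele of these rats, and this affects both sides. It was taken from the productive reads, however, so by construction it lies nearer to that side. How much of the excess comes from this choice of reference was not tested.

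The residues gained also shifted with copies. Asparagine made up 8.14% of the residues gained in in-frame reads with 1 copy, 17.1% with 2 and 25.0% with 3 or more. Productive reads had 9.97%, 19.5% and 16.6%. Proline was lowest at 2 copies, with 4.60% at 1 copy, 0.332% at 2 and 1.43% at 3 or more in in-frame reads, and 2.96%, 0.939% and 2.07% in productive reads. At 2 copies asparagine was thus higher and proline lower than at 1 copy on both sides, and these values were not tested.

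Most in-frame unproductive reads belonged to clonotypes that the same animal also used productively. Among unproductive reads with an open junction, 59.5% ± 3.61 (SD, n = 10) had a productive read of the same clonotype in their own animal, from 54.2% to 64.5%. In the other 9 animals the mean share was 2.52% ± 1.79, and no animal exceeded 7.08%. The difference of 57.0 points was found in 10 of 10 animals (exact sign-flip test, p = 0.00195). By kind, 75.6% of in-frame reads matched in their own animal, 67.8% of those with 1 copy and 82.6% of those with at least 2. Of the 13082 shifted reads with an open junction 0.112% matched, and of the 4975 reads of the neither kind 0.647%. A frame shift inside the junction changes its letters, so a read of this kind is not found by the match even where it stems from a productive clonotype. With the 3 kinds of an animal thinned to the same number of reads (134 to 3143), there were 1.30 ± 0.0798 (SD, n = 10) reads per clonotype in the in-frame kind, 1.17 ± 0.180 in the shifted kind and 1.03 ± 0.0151 in the neither kind. The in-frame kind was above the shifted kind in 9 of 10 animals and above the neither kind in 10 of 10, which was not tested.

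The largest unproductive clonotype of each animal was in frame and was also found among its productive reads. The junctions are given here because they show these clonotypes at the level of the sequence.
DNP1 and DNP5, IGHV3-1 with IGHJ2: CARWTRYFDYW
DNP2, IGHV3-1 with IGHJ2: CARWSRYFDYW
DNP3, IGHV3-1 with IGHJ2: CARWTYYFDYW
HuD1, IGHV3-3 with IGHJ4: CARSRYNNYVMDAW
HuD3, IGHV5-31 with IGHJ2: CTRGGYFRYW
HuD5, IGHV5-31 with IGHJ2: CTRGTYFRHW
The junction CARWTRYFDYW had 184 unproductive and 4188 productive reads in DNP1, where it was the most abundant productive clonotype, and 72 and 528 reads in DNP5. In DNP2 the leading junction had 205 unproductive and 1181 productive reads, and in DNP3 it had 196 and 1632. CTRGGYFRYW had 347 and 3711 reads in HuD3, and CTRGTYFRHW had 111 and 2217 in HuD5, where each was the most abundant productive clonotype. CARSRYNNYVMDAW had 114 and 1012 reads in HuD1. The leading clonotypes of DNP4 (IGHV3-3 with IGHJ4, 297 and 2476 reads), HuD2 (IGHV3-3 with IGHJ2, 88 and 751) and HuD4 (IGHV5-29 with IGHJ2, 251 and 3981) had longer junctions. Thus 4 of the 5 DNP animals shared IGHV3-1 with IGHJ2 in their leading unproductive clonotype, and the HuD animals used IGHV3-3, IGHV5-29 or IGHV5-31. The start CARW was common to these 4 and to DNP4, whose leading clonotype used other genes.

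The 10 most abundant clonotypes held a smaller part of the unproductive reads in most animals. They held 7.23% ± 4.00 (SD, n = 10) of unproductive reads, against 9.71% ± 5.03 of productive reads thinned to the same number. The ranges overlapped widely, but within animals the share was lower by 2.48 ± 1.55 points in 9 of 10 (exact sign-flip test, p = 0.00391), with DNP4 the exception. For in-frame reads alone the difference was 0.718 points (exact sign-flip test, p = 0.242), and for reads with 1 copy it was -0.454 points (exact sign-flip test, p = 0.273). In all these values, reads without a junction were grouped by IGHV and IGHJ alone and counted as clonotypes. Such reads were 5.69% of unproductive reads on average and 9.41% at most, so these shares are not those of clonotypes with a junction alone. A junction with a stop was counted as a clonotype of its own. Such junctions were in 32.4% of unproductive reads on average and cannot occur in productive reads. By construction this can lower the share of the top clonotypes on the unproductive side. How much of the difference comes from it was not tested.

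Junctions were slightly longer on the unproductive side. Their mean length was 14.3 ± 0.501 residues (SD, n = 10) against 13.8 ± 0.429, and the difference of 0.493 ± 0.314 residues was positive in 9 of 10 animals (exact sign-flip test, p = 0.00391). DNP3 went the other way with -0.298 residues. The difference depended on the kind of read, since it was 2.07 residues for the neither kind (exact sign-flip test, p = 0.00195), 0.219 for the in-frame kind (p = 0.00586 by the same exact test) and -0.419 for the shifted kind (exact, p = 0.0684). With open junctions only, it was -0.115 residues (exact sign-flip test, p = 0.174), and with 1-copy reads only 0.133 residues (exact sign-flip test, p = 0.227).

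**Figure D4:**
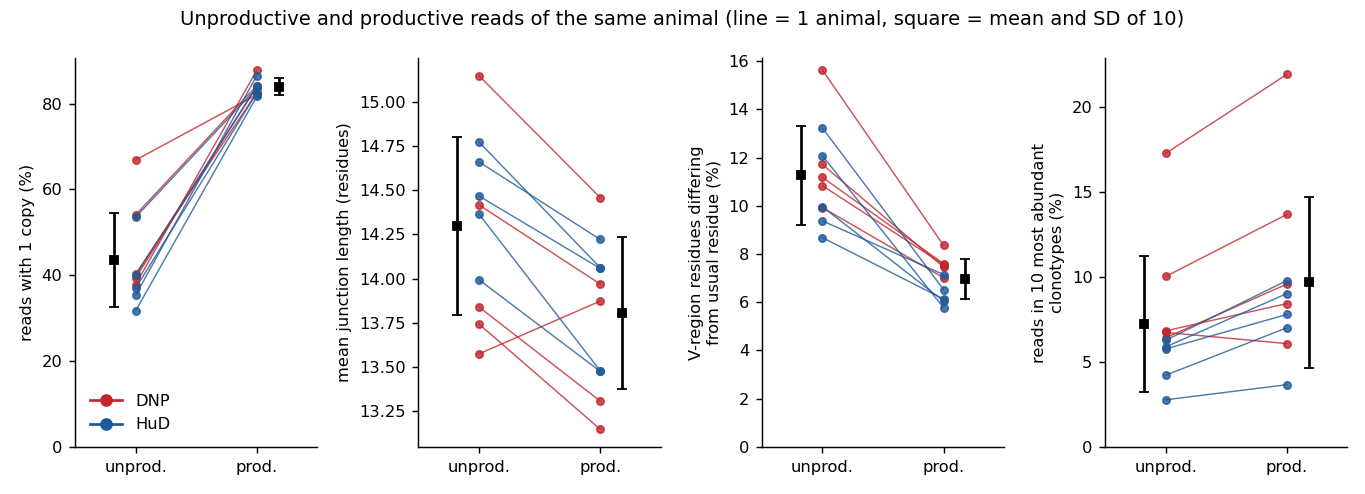
Values of the unproductive and the productive reads of each animal, joined by a line, for the percent of reads with 1 copy, the junction length in residues, the residue differences in percent and the percent of reads in the 10 most abundant clonotypes (y axes), with squares for the mean and SD of 10 animals. The share of reads with 1 copy is lower and the residue differences are higher on the unproductive side in 10 of 10 animals.

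All 4 IGHJ genes differed in use, IGHJ1 only narrowly. IGHJ2, the segment used most, held 51.7% ± 2.42 (SD, n = 10) of unproductive and 54.7% ± 3.91 of productive reads, and was lower by 2.95 points in 9 of 10 animals (exact sign-flip test with Benjamini-Hochberg adjustment over 4 genes, adjusted p = 0.00521). IGHJ3 held 21.5% and 24.0% and was lower by 2.47 points in 9 of 10 (exact, adjusted p = 0.00521). IGHJ4 held 16.4% and 12.4% and was higher by 4.03 ± 3.12 points in 9 of 10 (exact, adjusted p = 0.00521), most of all in DNP3 with 15.5% against 4.73%. IGHJ1 held 10.2% and 8.97% and was higher by 1.28 points in 9 of 10 (exact, adjusted p = 0.0469), and DNP3 was lower by 2.51 points. The IGHJ1 call was lost when any of 9 of the animals was left out. None of the 4 passed the threshold when each clonotype was counted 1 time or when only reads with at least 2 copies were used (adjusted p from 0.141 to 0.379 by the same exact test).

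IGHV usage was compared for 84 genes with at least 100 reads over both sides and all animals together. Of these 28 (33.3%) passed an adjusted p of 0.05 in edgeR's quasi-likelihood test with the animal as a block and Benjamini-Hochberg adjustment, 5 of them higher (5.95%) and 23 lower (27.4%) in unproductive reads. The median log2 fold change over all 84 genes was -0.28. The values of single genes below were tested against 0 and were not corrected for that shift. When libraries were scaled by read totals alone, 25 genes passed and 28.0% of them were higher, against 17.9% in the first scaling, and the median was -0.10. Without DNP4 18 genes passed. The balance of directions depended on the settings. With no minimum of reads 29 genes were higher and 27 lower. With 1-copy reads 10 were higher and 13 lower, and with at least 2 copies 6 and 2. With copies in place of reads 5 were higher and 31 lower, and with unique clonotypes 15 and 29.

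Of the 10 genes with the highest share of unproductive reads 9 did not pass this test. IGHV5-31 held 10.9% ± 6.31 of unproductive and 8.47% ± 3.21 of productive reads (log2 fold change 0.03, edgeR adjusted p = 0.906). IGHV5-25 held 10.4% and 9.27%, IGHV5-7 8.08% and 7.04%, IGHV5-22 7.84% and 9.22%, IGHV3-1 7.84% and 7.22%, IGHV5-20 7.67% and 7.35%, IGHV5-29 6.54% and 6.92%, IGHV3-3 4.51% and 3.48%, and IGHV5S10 3.20% and 3.36%. IGHV5S13 passed, with 3.50% against 4.36% (log2 fold change -0.52 ± 0.18 SE, edgeR adjusted p = 0.0353) and 9 of 10 animals lower, and it was -0.42 without DNP4 (edgeR adjusted p = 0.0521).

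Among the 5 genes that were higher, 3 are annotated as pseudogenes. IGHV5-11, IGHV5-23 and IGHV9-4 reached the minimum of 100 reads only through their unproductive reads. The filter thus favoured their calls, and their fold changes are given as a description. IGHV5-11, a pseudogene, had 159 unproductive reads in 8 animals and 1 productive read, so that 99.4% of its reads were unproductive (exact Clopper-Pearson 95% interval 96.6% to 99.98%, counting error only). HuD1 alone held 116 of the unproductive reads, and without it 43 remained with the same 1 productive read. Its fitted log2 fold change of 8.38 ± 0.69 (SE) rests on that 1 read. Of its unproductive reads 94.97% were of the neither kind, and 88.4% without HuD1. IGHV5-23, a pseudogene, had 203 unproductive and 47 productive reads (81.2%, interval 75.8% to 85.8%, log2 fold change 4.01 ± 0.64 SE), but DNP3 alone held 164 of the unproductive reads. Without DNP3 it had 39 and 38 reads (50.6%), too few for the test, and over the animals with a read the unproductive part ranged from 0 over a median of 55.0% to all of them. The J segment was shifted in 85.7% of its unproductive reads, and in 61.5% without DNP3. IGHV3-4, a pseudogene, had 301 and 1447 reads (log2 fold change 1.56 ± 0.32 SE, edgeR adjusted p = 0.00131) and was higher in 10 of 10 animals.

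The other 2 are annotated as functional. IGHV9-4, the gene with the stop at FR1 position 1 under a mixed primer base, had 138 unproductive and 49 productive reads. Its share was higher in unproductive reads in 10 of 10 animals (log2 fold change 4.93 ± 0.51 SE). The unproductive part of its reads ranged from 40.0% over a median of 75.7% to all of them, but DNP4 alone held 64 of them, and without it 74 and 22 reads remained, too few for the test. IGHV2S1 had 123 and 657 reads and a log2 fold change of 1.56 ± 0.46 (SE), with 9 of 10 animals higher. It was 1.59 without DNP4 and 1.43 without DNP1, and passed in neither case (edgeR adjusted p = 0.0577 and 0.0743).

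Among the 23 genes that were lower, 6 were so in 10 of 10 animals. IGHV1-43 had the most reads of these, 975 unproductive and 33441 productive, and held 0.862% against 2.09% (log2 fold change -1.65 ± 0.21 SE, edgeR adjusted p = 5.7e-06). It ranged from 2.01% to 4.46% unproductive, so every animal was below the lowest unproductive share of a whole library. IGHV2-77 had a log2 fold change of -1.33 ± 0.25 (SE), IGHV2-6 of -0.97 ± 0.18, IGHV2-41 of -0.77 ± 0.18 and IGHV2-32 of -0.67 ± 0.20. IGHV8-20 had 3 unproductive and 137 productive reads, which is 2.14% unproductive (interval 0.444% to 6.13%), and its call was lost without any of 8 of the animals. Most animals had no unproductive read of it and count as lower for that reason. It also reached the minimum of 100 reads only through its productive reads.

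Set against the 27.4% of all tested genes that were lower and the 5.95% that were higher, no subgroup or annotation was tested as a group, and the counts are a description. Of 35 IGHV2 genes 13 were lower and 1 higher, with a median log2 fold change of -0.35. Of 26 IGHV5 genes 7 were lower and 2 higher, with a median of -0.11, and of 7 IGHV1 genes 2 were lower and none higher. The single IGHV8 gene tested, with 3 unproductive reads, was lower and the single IGHV9 gene was higher. By annotation, 19 of 66 functional genes were lower and 2 higher. Of 9 open reading frame (ORF) genes 2 were lower, and of 9 pseudogenes 3 were higher and 2 lower. The counts of higher genes, and the 5.95% over all genes, include IGHV5-11, IGHV5-23 and IGHV9-4. These genes reached the minimum of reads only through their unproductive reads, so the filter favoured their calls. Among the ORF genes and pseudogenes with the most reads, IGHV2-43 (pseudogene, log2 fold change -0.84), IGHV5-34 (pseudogene, -0.97) and IGHV5-36 (ORF, -2.15) were lower, each with an edgeR adjusted p of 0.00699. IGHV10-4, IGHV2-34, IGHV2-16, IGHV2-65 and IGHV2-8 did not pass. IGHV5-36 had 42 unproductive and 1969 productive reads, but none on either side in DNP1, DNP3 and DNP5. DNP4 had 1 unproductive read of it, and DNP2 had 2 unproductive and 29 productive reads. The IGHV5-36 call was lost without HuD2 or HuD3 (edgeR adjusted p = 0.0635 and 0.0653). Pseudogenes together held 2.03% of unproductive and 1.65% of productive reads, higher in 5 and lower in 5 animals.

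**Figure D5:**
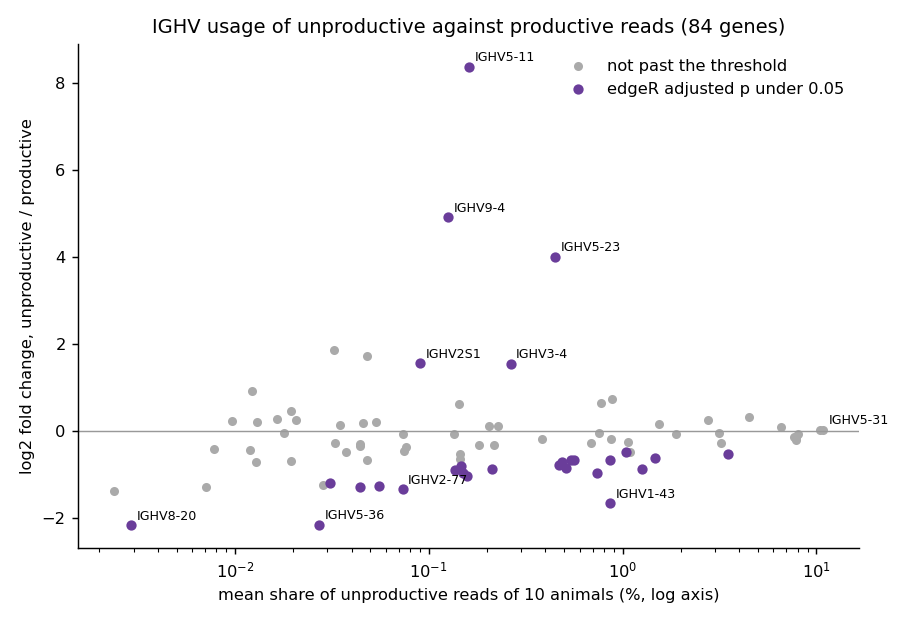
Log2 fold change of IGHV usage in unproductive against productive reads (y axis, 1 point per gene, 84 genes) against the mean share of unproductive reads in percent (x axis, log scale), with the genes that passed the edgeR test in purple. Of 84 genes 5 are higher and 23 lower, and IGHV5-31, the gene with the largest share, lies at 0.03.

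Of the 28 genes, 9 also passed in reads with 1 copy alone, where 23 genes did. With at least 2 copies 8 genes passed and 3 of them were among the 20 of the 28 that could be tested. IGHV5-25 and IGHV5-31 were lower among reads with 1 copy (log2 fold changes -0.47 and -0.52).

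The difference between unproductive and productive usage differed between the antigens for 2 of 84 genes (2.38%) in edgeR's interaction test. For IGHV5S11 the log2 fold change was 2.07 ± 0.41 (SE) higher in HuD animals (edgeR adjusted p = 0.00197). It was 22.8% to 27.0% unproductive in the HuD animals, which had 35 to 47 unproductive and 100 to 140 productive reads of it each, and 4.12% to 15.0% in the DNP animals, so the groups did not overlap. For IGHV5-62 the log2 fold change was 4.89 lower in HuD animals (edgeR adjusted p = 0.0183), but the DNP animals had only 24 unproductive and 59 productive reads in all, and the call was lost without most of the animals. When each clonotype was counted 1 time neither gene passed, with 13 genes at an unadjusted p under 0.05 in edgeR.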

How the data were processed

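Spleen RNA of each animal was reverse transcribed with primers on the constant domains that carried a molecular identifier. The product was amplified with forward primers that the paper places on the leader, of which at least the IGHV9 primer reaches into FR1. Unproductive reads could be counted only where these primers bound. According to the study's methods, PEAR was used by the authors to merge paired reads, MIGEC to collapse all reads of a tag (identifier and 10 CDR3 bases) down to a minimum of 1 read, and High-VQuest to annotate the result. Versions were not given in the sources used here. The deposited copy count of each read is a raw count per tag, with no normalization.

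Reads were assigned to the first IGHV and IGHJ gene named, although 16.9% of unproductive and 14.1% of productive reads named several IGHV genes, so near-identical genes can trade reads. Reads per gene were tested with edgeR 4.0.16 (quasi-likelihood, TMM, animal as a block, at least 100 reads per gene, Benjamini-Hochberg adjustment, R 4.3.3). Single values per animal were tested with exact 2-sided sign-flip or permutation tests. These exact tests were checked on simulated data. Of the IGHV genes, those named are the 10 with the highest share of unproductive reads, up to 10 higher and up to 10 lower past the threshold with the same direction in all 10 animals, and up to 10 ORF genes or pseudogenes by reads. All IGHJ genes and each animal's largest unproductive clonotype are given, and IGHV5-11, IGHV5-23, IGHV2S1 and the genes of the interaction test were added after their values were seen. The planned split by frameshift sign could not be made because the deposited sequences hold no such sign, and the frame of the J segment took its place. The members, lists and comparisons were chosen with earlier results of these data known. Animals with the same number in both antigen groups were not paired: correlations of their deviations in IGHV usage ranged from -0.141 to 0.301. The alternatives tried were other units of a read, copy classes, kinds of read, filters, scalings, the tools DESeq2 1.42.0 and limma 3.58.1, and leaving out each animal.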

Additional observations from a re-analysis of the deposited data

Results flagged for a closer look

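For each measure and each named IGHV gene the difference between unproductive and productive reads was compared among the 5 animals of an antigen group. The unproductive share, in all reads and by copies, and the shares of the 3 kinds were compared in the same way. Of 84 such groups 13 held an animal far from the other 4 by Dixon's test, which by chance marks about 1 in 20 groups. DNP3, the animal with the fewest unproductive reads, was such an animal in 4 of them. Its junction length differed by -0.298 residues, its IGHJ2 share by -6.96 percentage points, its IGHV5-22 share by -15.6 points and its IGHV2-16 share by 0.104 points. DNP2 lay apart in IGHV2-43 (-0.619 points) and IGHV5-31 (5.86 points). HuD1 lay apart in IGHV3-3 (3.99 points), IGHV3-4 (0.542 points) and IGHV9-4 (0.101 points). HuD2 lay apart in copies per read, with a difference of 1.68, and in IGHV2-32 (-0.265 points). HuD3 lay apart in IGHV5-31 (11.4 points) and HuD5 in IGHV1-43 (-0.921 points).

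Differences between the antigens were found for 3 items. The IGHJ1 difference was 2.20 points larger in HuD than in DNP animals (exact permutation test, p = 0.0159, adjusted p = 0.159 over 10 measures, so it fails the correction). The log2 fold change of IGHV5S11 was 2.07 higher in HuD animals, and that of IGHV5-62 differed by -4.89, both in edgeR's interaction test. The causes of these differences were not tested.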

How the results depend on the processing

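The excess of residue differences kept direction and side of the threshold under all alternatives tried for it, which all used the same productive reference. The match to productive clonotypes of the same animal did so with the junction alone and with thinned productive reads. It also did so with 1-copy reads, with at least 2 copies and without any 1 animal. By kind, however, it was only 0.109 points in shifted reads and 0.597 in reads of the neither kind. Of 207 shifted reads with at least 2 copies, 0 matched. The kinds of read and the 1-copy class were chosen after seeing the data. Junction length was -0.115 residues with open junctions, 0.133 with 1-copy reads and -0.419 in shifted reads. Copies per read differed by -0.507 and the percent with 1 copy by 13.5 in shifted reads. The share of the top clonotypes differed by -0.454 points with 1-copy reads, 0.718 in frame, -1.53 shifted and 1.55 in the neither kind. These values also count reads without a junction, grouped by IGHV and IGHJ alone, and junctions with a stop as clonotypes of their own. With unique clonotypes IGHJ1 to IGHJ4 differed by 0.595, -0.637, -1.13 and 1.05 points, with at least 2 copies by 2.07, -2.08, -2.72 and 2.65, and in shifted reads by -1.30, -4.80, -0.229 and 6.11. IGHJ1 was 0.673 and IGHJ3 -1.36 with 1-copy reads, and in-frame reads gave 0.516 for IGHJ1 and -0.168 for IGHJ2. Without 1 animal IGHJ1 ranged from 0.971 to 1.70 points and lost the call in 9 of 10 cases. The 28 IGHV calls became 56 with no filter, 3 without the animal block, 44 with unique clonotypes and 8 with at least 2 copies. They became 15 in shifted reads, 46 in the neither kind, and 18 (without DNP4) to 27 without 1 animal. DESeq2 and limma each called 24 genes and copies in place of reads 36. The 2 interaction calls became 0 with unique clonotypes (13 genes at an unadjusted p under 0.05), 1 with 1-copy reads and 1 to 3 without 1 animal. Log2 fold changes turned to 0.36 for IGHV2-32 and 1.22 for IGHV5-34 with at least 2 copies. With unique clonotypes they turned to 0.33 for IGHV3-1, 0.49 for IGHV5-22 and 0.48 for IGHV5-7. With 1 copy they turned to -0.47 for IGHV5-25 and -0.52 for IGHV5-31, and in the neither kind to -2.05 for IGHV3-3. The causes were not tested. With the animal number as a replicate block, the unproductive share differed between antigens by 0.819 points as before (exact, p = 0.188, the smallest possible 0.0625). Copy classes above 20 copies held 6586 reads in all, which limits them.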
